A study of Mus musculus with 22 samples.

Results

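The 7 genes described here encode effector molecules with which cytotoxic lymphocytes kill: the granzymes Gzma, Gzmb, Gzmk and Gzmm, the pore protein perforin (Prf1), Fas ligand (Fasl) and TRAIL (Tnfsf10). They were chosen by symbol, and all 7 were found among the 770 genes of a NanoString table, an assay in which probes bound to RNA are counted without amplification. Gene expression was measured in total RNA of 22 EMT-6 tumours, each from 1 BALB/c mouse. EMT-6 is a mouse mammary carcinoma line, here grown in the mammary fat pad, and a whole tumour also holds blood vessels and immune cells of its host. Treatment began at day 0, when tumours were near 100 mm3, and tissue was collected at day 6.

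There were 6 groups. The isotype group had 4 mice, which received neither agent (the sample titles name an isotype control, while another label gives the agent as none). NHS-muIL12 is an antibody against DNA and histones, which lie exposed in necrotic tissue, joined to mouse interleukin-12. It was given once under the skin on day 0, at 2 µg to 4 mice and at 10 µg to 3 mice. Avelumab, a human antibody that blocks PD-L1, was given into a vein at 200 µg on days 0, 3 and 6 to 3 mice. Both agents together were given to 4 mice with 2 µg (combination 2 µg) and to 4 mice with 10 µg (combination 10 µg). The last avelumab injection fell on the day of collection. Groups of 4 mice are named in the series text, and further mice are not analysed here.

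Killer cells store granzymes and perforin in granules. After contact with a target, perforin opens its membrane, and granzymes, which are serine proteases, enter and cleave proteins inside it. Fas ligand and TRAIL act by binding death receptors on the target that activate caspases. Interleukin-12 acts on NK cells and T cells through STAT4 and is known to raise their production of interferon-gamma and their killing. TRAIL is also induced by interferons in several cell types.

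The values are the deposited NanoString signals, on a linear scale that stops at 0. Total signal per library ran from 300174 to 511105, and 750 genes were tested after 20 housekeeping genes had been set aside. Libraries differed at their dim end. The lower quartile of signal ran from 3.06 to 19.1 in 18 libraries and from 33.3 to 50.2 in isotype replicates 1 and 2, NHS-muIL12 2 µg replicate 3 and NHS-muIL12 10 µg replicate 3, called here the 4 high low-end libraries. The epithelial genes Epcam, Cdh1 and Muc1 were above 0 in all 22 tumours, with lowest signals of 15.99, 12.8 and 34.8. Of the lymphocyte markers, Cd3e (1.84 to 78.1) and the NK receptor gene Ncr1 (8.88 to 44.02) were above 0 in all tumours, while Cd8a was at 0 in 4 of 22. In bulk tumour RNA, fewer killer cells and less message per cell cannot be told apart.

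On the GRCm38.p6 assembly Gzma (chr13:113093824-113100981) and Gzmk (chr13:113171630-113180965) lie close together on chromosome 13. Gzmb is at chr14:56258836-56262334, Gzmm at chr10:79689020-79695261 and Prf1 at chr10:61297751-61304684. Fasl is at chr1:161780691-161788495 and Tnfsf10 at chr3:27317077-27339665. All 7 matched RefSeq promoters of this build, 8 in number since Gzmm has 2 starts. The 250 bases upstream of the start are shown for the 2 members that passed a test below, Gzma and Tnfsf10, and for Gzmb, a granzyme that did not. Capitals mark matches, on either strand, to a GAS motif (TTCNNNGAA, of STAT factors), an ISRE core (GAAA, any 2 bases and GAAA, of interferon regulatory factors) or a T-box core (TCACAC, of T-bet and Eomes).
Gzma, chr13:113100982-113101231, minus strand: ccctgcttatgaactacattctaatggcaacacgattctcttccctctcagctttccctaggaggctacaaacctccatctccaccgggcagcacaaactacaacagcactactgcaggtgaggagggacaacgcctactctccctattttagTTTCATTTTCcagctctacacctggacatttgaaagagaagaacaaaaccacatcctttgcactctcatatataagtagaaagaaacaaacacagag
Gzmb, chr14:56262335-56262584, minus strand: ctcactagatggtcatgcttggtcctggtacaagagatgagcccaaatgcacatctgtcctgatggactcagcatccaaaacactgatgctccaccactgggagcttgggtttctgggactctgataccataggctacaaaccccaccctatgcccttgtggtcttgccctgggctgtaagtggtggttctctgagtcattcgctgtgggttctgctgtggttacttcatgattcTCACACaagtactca
Tnfsf10, chr3:27316827-27317076, plus strand: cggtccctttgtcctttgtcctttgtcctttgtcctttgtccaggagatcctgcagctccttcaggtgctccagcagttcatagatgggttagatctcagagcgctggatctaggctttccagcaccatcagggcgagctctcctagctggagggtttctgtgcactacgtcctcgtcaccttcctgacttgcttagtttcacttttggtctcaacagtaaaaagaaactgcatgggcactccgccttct
The Gzma window held 1 ISRE core, 88 to 97 bases before the start, a motif found in 2.98% of 32851 promoter windows of this length and in 6.80% of the 676 such windows of genes in the assay. The Gzmb window held 1 T-box core, 10 to 15 bases before the start, as did 12.3% of all windows and 10.8% of those in the assay. The Tnfsf10 window held none of the 3 motifs. A GAS motif, in 7.02% of all windows and 10.8% of those in the assay, was matched among the members at 1 of the 2 starts of Gzmm. A match is a description of the letters.

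Gzma, a granzyme with tryptase-like cleavage stored in the granules of NK cells and cytotoxic T cells, rose in combination 10 µg against isotype. Its signal in isotype replicates 1 to 4 was 22.7, 10.5, 61.4 and 26.2. In combination 10 µg it was 45.8, 143, 78.98 and 71.6. Of the 4 combination mice, 3 lay above the highest isotype mouse and all 4 above the isotype mean, so the groups overlapped through isotype replicate 3 and combination replicate 1. The mean was 85.0 ± 41.5 (SD, n = 4) against 30.2 ± 21.9 (SD, n = 4), and the change in log2(signal + 1), the scale of all changes below, was 1.60 ± 0.49 (SE, limma adjusted p = 0.0284), or 3.04-fold. It was the only member of the 7 past the threshold (an adjusted p under 0.05, Benjamini-Hochberg over all 750 genes) in that comparison, where 19.7% of tested genes were called. The call was kept in 4 of the 8 fits that left out 1 mouse of the groups compared and lost without isotype replicate 1 or 2 or combination replicate 2 or 3 (log2 change 1.21 to 2.02 over these 8 fits). Leaving out the 4 high low-end libraries, and with them 2 of 4 isotype mice, gave a log2 change 0.94, limma adjusted p = 0.336, and quantile normalization gave a log2 change 2.58, limma adjusted p = 0.0293.

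Without avelumab, all 3 mice at 10 µg NHS-muIL12 had more Gzma signal than any mouse at 2 µg, a separation found for 16.9% of the 750 genes between these groups. At 10 µg they were at 76.00, 63.2 and 61.8, and at 2 µg the 4 mice were at 22.3, 28.3, 43.8 and 22.6. The mice at 10 µg also lay above the highest isotype mouse, although by a narrow margin over 61.4. The log2 change at 10 µg against isotype was 1.38 ± 0.52 (limma adjusted p = 0.110), which did not pass. In that comparison 0 of the 7 members passed in limma, where 10.5% of tested genes were called. The unadjusted p in limma was under 0.05 for 1 member and for 22.7% of tested genes. Groups free of overlap were found for 22.1% of the 750 genes between the same mice. Without isotype replicate 3 the call was gained (log2 change 1.80, limma adjusted p = 0.0339). At 2 µg alone the change was 0.16 ± 0.49 (95% interval -0.86 to 1.18; limma adjusted p = 0.955). There 0 members passed in limma (0 at an unadjusted p under 0.05), and 0% of tested genes (59 genes at an unadjusted p under 0.05).

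Combination 2 µg held 3 mice with high Gzma and 1 without. Their signals were 82.2, 23.6, 74.01 and 100.2 in replicates 1 to 4. Replicates 1, 3 and 4 lay above every isotype mouse, and replicate 2 lay below the isotype mean of 30.2. The log2 change against isotype was 1.27 ± 0.49 (limma adjusted p = 0.105), and 0 members passed in limma, with 9.47% of tested genes called. An unadjusted p under 0.05 in limma was found for 1 member and for 28.1% of tested genes. The call was gained without combination 2 µg replicate 2 (log2 change 1.72, limma adjusted p = 0.0252) and without isotype replicate 3 (log2 change 1.69, limma adjusted p = 0.0275). Avelumab alone gave 29.6, 31.6 and 56.1, within the isotype range, a change of 0.56 ± 0.52 (limma adjusted p = 0.779). Against isotype, avelumab had 0 members and 0% of tested genes past the threshold in limma (0 members and 38 genes at an unadjusted p under 0.05).

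By mean log2(signal + 1) the order of the groups for Gzma was combination 10 µg (6.31), NHS-muIL12 10 µg (6.08), combination 2 µg (5.97), avelumab (5.27), NHS-muIL12 2 µg (4.87) and isotype (4.70). No neighbours in that order differed by more than the larger of their SDs, and this held for each of the 7 members. Gzma was higher in combination 2 µg than in NHS-muIL12 2 µg by 1.11 ± 0.49, a difference that did not pass (limma adjusted p = 0.423), and 0.267% of tested genes were called there. At 10 µg the corresponding difference was 0.23 ± 0.52 (95% interval -0.88 to 1.33; limma adjusted p = 0.968).

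**Figure D1:**
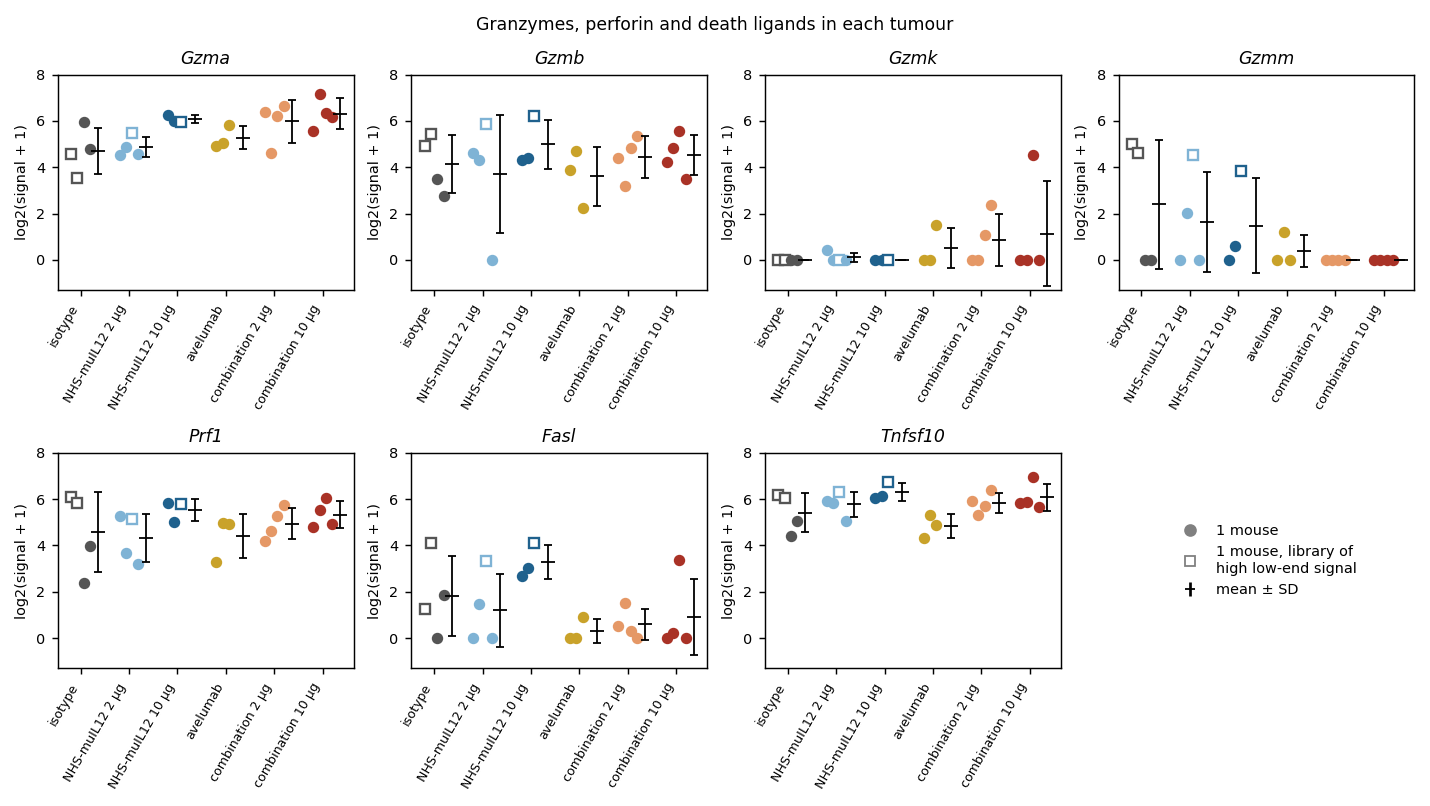
Signal of the 7 members in each of the 22 tumours, as log2(signal + 1), by treatment group. Points are mice, open squares are the 4 high low-end libraries, and the bars beside them give the group mean and SD. For Gzma, all 3 mice with 10 µg NHS-muIL12 alone lie above every isotype mouse, by a narrow margin (signal 61.8 against 61.4). Groups free of overlap were found for 22.1% of tested genes between the same mice, in either direction. The Gzma change between them did not pass (limma adjusted p = 0.110). Gzmm is above 0 in only 7 of 22 mice.

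TRAIL, the product of Tnfsf10, was the other member past the threshold, and its difference lay between mice with and without NHS-muIL12. With the 4 groups that received NHS-muIL12 weighted equally, the log2 level was higher by 0.87 ± 0.26 than in isotype and avelumab (limma adjusted p = 0.0214), or 1.82-fold. Over the 15 mice with NHS-muIL12 the lowest, median and highest signals were 31.9, 59.0 and 123, and over the 7 mice without it 18.7, 32.3 and 71.9. Of 7 members only Tnfsf10 passed, in a comparison in which 22.7% of tested genes were called. The call held in 21 of the 22 fits that left out 1 mouse and was lost without avelumab replicate 2 (log2 change 0.73, limma adjusted p = 0.0867). In the 10 other alternatives run it was kept each time, at log2 changes from 0.55 to 1.12.

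Group by group, the Tnfsf10 signal was 71.9, 65.1, 20.1 and 32.3 in isotype mice. The 3 avelumab mice were at 18.7, 38.5 and 28.9, the group of lowest mean. With NHS-muIL12 alone the signals were 59.2, 56.2, 77.2 and 31.9 at 2 µg and 65.6, 69.00 and 105 at 10 µg. Both groups overlapped with isotype, whose replicates 1 and 2 are high low-end libraries. Combination 2 µg gave 59.04, 39.2, 51.2 and 82.3, and combination 10 µg gave 56.9, 58.1, 123 and 48.97. Every mouse of both combination groups lay above the highest avelumab mouse, as was so for 23.9% (2 µg) and 21.3% (10 µg) of the 750 genes in one direction or the other.

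Added to avelumab, 10 µg NHS-muIL12 gave a Tnfsf10 change of 1.25 ± 0.43 (limma adjusted p = 0.0574), just short of the threshold. With 2 µg the change was 0.99 ± 0.43 (limma adjusted p = 0.156). In limma 0 of 7 members passed in either comparison, where 16.9% (10 µg) and 10.8% (2 µg) of tested genes were called. In each, 1 member had an unadjusted p under 0.05 in limma, as did 28.7% (10 µg) and 25.3% (2 µg) of tested genes. Against isotype the Tnfsf10 changes were 0.35 ± 0.40 at 2 µg, 0.88 ± 0.43 at 10 µg, -0.58 ± 0.43 with avelumab, 0.41 ± 0.40 in combination 2 µg and 0.66 ± 0.40 in combination 10 µg, and none passed. The lower quartile of a library moved with Tnfsf10 within groups (Pearson's r = 0.85 over 22 deviations from group means). When that quartile was added to the fit as a covariate, an alternative chosen after the data had been seen, the change for any NHS-muIL12 was 0.85 (limma adjusted p = 4.70e-04). In the same fit Tnfsf10 passed against isotype at 10 µg alone (log2 change 0.84, limma adjusted p = 0.0255), in combination 2 µg (log2 change 0.72, limma adjusted p = 0.0398) and in combination 10 µg (log2 change 0.89, limma adjusted p = 0.0105).

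For Gzma the contrast of any NHS-muIL12 with none was 0.82 ± 0.32 (limma adjusted p = 0.0734), which did not pass. It passed without isotype replicate 3 (log2 change 1.03, limma adjusted p = 0.0175) and without combination 2 µg replicate 2 (log2 change 0.93, limma adjusted p = 0.0199), and leaving out the 4 high low-end libraries gave a log2 change of 0.45. Over the 7 members the median log2 change in this contrast was 0.54, with 6 of 7 above 0, against a median of 0.07 over all tested genes, of which 57.5% were above 0. Of the 7 members, 2 had an unadjusted p under 0.05 in limma, as did 267 of the 750 tested genes (35.6%).

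**Figure D2:**
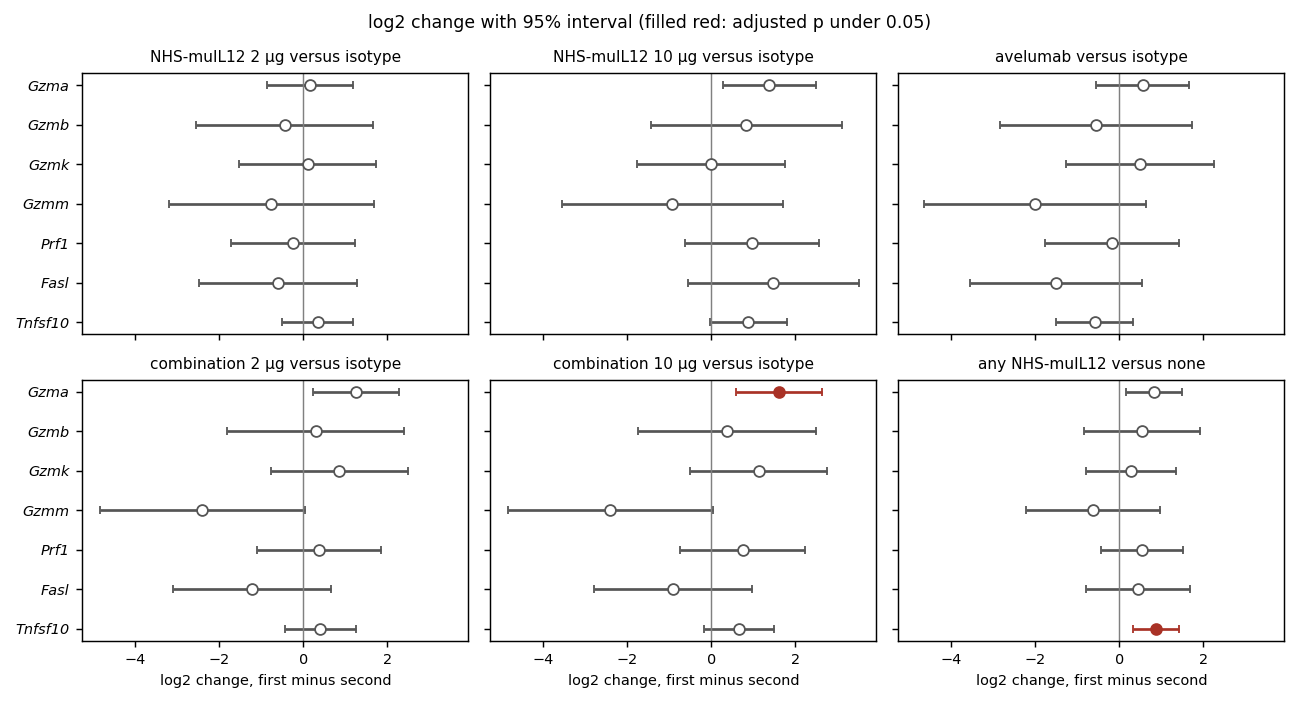
Change in log2(signal + 1), first group minus second, with its 95% interval from limma for the 7 members in 6 comparisons. Filled red points have an adjusted p under 0.05, which are Gzma in combination 10 µg (1.60) and Tnfsf10 for any NHS-muIL12 (0.87). The intervals of Gzmb, Gzmm and Fasl are wide.

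Gzmb, the granzyme that cleaves after aspartate and activates caspases directly, did not pass in any comparison. Its signal was 29.3, 41.9, 10.3 and 5.67 in isotype mice and 17.4, 27.6, 45.9 and 10.3 in combination 10 µg, groups that overlap throughout. The isotype values of 29.3 and 41.9 are those of high low-end libraries. At 10 µg alone the Gzmb signal was 18.98, 20.3 and 73.5, where the highest value is also that of a high low-end library. At 2 µg alone it was 23.4, 19.03, 57.9 and 0, again with the highest value in such a library. The remaining values were 13.8, 24.7 and 3.68 with avelumab and 19.98, 8.12, 27.5 and 39.8 in combination 2 µg. Gzmb changed by 0.38 ± 1.00 in combination 10 µg (95% interval -1.74 to 2.49; limma adjusted p = 0.820) and by 0.84 ± 1.08 at 10 µg alone (95% interval -1.44 to 3.12; limma adjusted p = 0.709), so increases of over 4-fold lie within both intervals.

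Prf1 encodes perforin, without which granzymes do not reach the interior of the target in this route of killing. It spread most within the isotype group, at 66.97, 55.8, 4.27 and 14.8, with the high pair in high low-end libraries. At 10 µg alone the 3 mice were at 55.3, 31.05 and 55.04, and in combination 10 µg the 4 mice were at 26.5, 45.5, 64.7 and 29.2. No mouse of these treated groups lay above the highest isotype mouse. At 2 µg alone Prf1 was at 37.3, 11.7, 34.8 and 8.22, with avelumab at 8.88, 30.3 and 29.9, and in combination 2 µg at 17.1, 23.6, 37.1 and 52.6. The log2 change was 0.97 ± 0.76 at 10 µg alone (limma adjusted p = 0.492) and 0.74 ± 0.70 in combination 10 µg (limma adjusted p = 0.489). Leaving out the 4 high low-end libraries, with 2 isotype mice left, gave a log2 change 2.22, limma adjusted p = 0.208, at 10 µg alone and a log2 change 2.13, limma adjusted p = 0.0971, in combination 10 µg, and neither passed.

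Gzmm, a granzyme best known from NK cells and other innate lymphocytes, was listed at 0 in 15 of 22 tumours. Its 4 highest signals, 30.9, 23.3, 21.99 and 13.1, were those of the 4 high low-end libraries, isotype replicates 1 and 2, NHS-muIL12 2 µg replicate 3 and NHS-muIL12 10 µg replicate 3. In the 18 other libraries the highest was 3.09. All 8 combination mice and isotype replicates 3 and 4 were at 0. The log2 difference of either combination from isotype was -2.40 ± 1.16 and did not pass (limma adjusted p = 0.184 for combination 2 µg and 0.152 for combination 10 µg). These differences depend on the 1 added before the logarithm, since the combination groups were at 0. With sample weights both passed (log2 change -3.74, limma adjusted p = 0.00945, in combination 10 µg). Without those 4 libraries the remaining isotype and combination mice were all at 0.

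Gzmk, a granzyme found in memory T cells and some NK cells, was listed at 0 in 17 of 22 tumours, among them all 4 isotype mice and all 3 mice with 10 µg alone. The 5 values above 0 were 0.338 in NHS-muIL12 2 µg replicate 1, 1.81 in avelumab replicate 4, 1.10 and 4.11 in combination 2 µg replicates 3 and 4, and 21.8 in combination 10 µg replicate 3. Of these, 4 came from mice given avelumab, and the single value of 21.8 stood far above the others. For avelumab over the 3 doses of NHS-muIL12 the Gzmk difference was 0.79 ± 0.47 (limma adjusted p = 0.378). No fold is given, since the isotype group was listed at 0.

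Fasl, the ligand of the death receptor Fas, was dim, and was listed at 0 in 7 of 22 tumours. At 10 µg alone all 3 mice were above 0, at 5.50, 7.12 and 16.5. Isotype mice were at 1.39, 16.3, 0 and 2.63, so that isotype replicate 2 lay among them. At 2 µg alone the signals were 0, 1.76, 9.15 and 0.00222, and with avelumab 0, 0 and 0.870. In combination 2 µg they were 0.448, 1.90, 0.226 and 0, and in combination 10 µg 0, 0.184, 9.29 and 0. Of the 4 highest Fasl signals, 3 were from high low-end libraries (16.5 at 10 µg alone, 16.3 in isotype and 9.15 at 2 µg alone). The log2 change was 1.48 ± 0.97 at 10 µg alone (limma adjusted p = 0.394) and -0.91 ± 0.89 in combination 10 µg (limma adjusted p = 0.514). Combination 10 µg stood at -2.38 ± 0.97 against 10 µg alone, with an unadjusted p of 0.0244 in limma and an adjusted p of 0.932. Over the 17 alternative fits this Fasl difference ran from -3.20 to -0.49. In that comparison 0 of 7 members and 0% of tested genes were called in limma (1 member and 35 genes at an unadjusted p under 0.05).

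For avelumab averaged over the 3 doses of NHS-muIL12, counting 0 µg as a dose, the unadjusted p was under 0.05 for 3 members and none passed. Fasl differed by -1.50 ± 0.54 (limma adjusted p = 0.252) and Gzmm by -1.71 ± 0.71 (limma adjusted p = 0.252), while Gzma differed by 0.63 ± 0.30 (limma adjusted p = 0.288). Called genes were 0% of those tested in limma, with 128 at an unadjusted p under 0.05. The 4 high low-end libraries all lay in groups without avelumab. Leaving them out gave -0.83 for Fasl, -0.19 for Gzmm and 0.46 for Gzma. With sample weights, which let libraries count unequally, all 3 passed and Gzma stood at 0.79 (limma adjusted p = 0.0279).

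Between doses and for the interaction of the agents, 0 of 7 members passed in limma. For 10 µg against 2 µg alone, with 0% of tested genes called (103 genes and 2 members at an unadjusted p under 0.05), the changes were 1.22 ± 0.52 for Gzma (limma adjusted p = 0.306) and 2.08 ± 0.97 for Fasl (limma adjusted p = 0.350). Between the combinations, with 0% called (35 genes and 0 members at an unadjusted p under 0.05), Gzma differed by 0.33 ± 0.49. The interactions ask whether the NHS-muIL12 effect differs with avelumab. They had 0% of tested genes called at 2 µg and 0% at 10 µg (37 and 16 genes, and 0 members, at an unadjusted p under 0.05). For Gzma they were 0.55 ± 0.71 at 2 µg (95% interval -0.96 to 2.05) and -0.34 ± 0.74 at 10 µg (95% interval -1.90 to 1.23).

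The members did not vary as 1 unit across tumours. Prf1 and Tnfsf10 were the closest pair (Pearson's r = 0.80 over the 22 libraries and 0.85 over deviations from group means), followed by Gzmb and Tnfsf10 (0.70 and 0.74). For Gzma the r was 0.24 with Gzmb, 0.19 with Prf1 and 0.26 with Tnfsf10 over libraries, and 0.08, -0.16 and -0.08 over deviations. The lower quartile of a library had an r over deviations of -0.09 with Gzma and 0.19 with Gzmk, but 0.66 with Fasl, 0.73 with Gzmb, 0.80 with Prf1, 0.82 with Gzmm and 0.85 with Tnfsf10. The points of each correlation share libraries, so these are descriptions, and the part of low-end signal in the members' values was not tested.

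**Figure D3:**
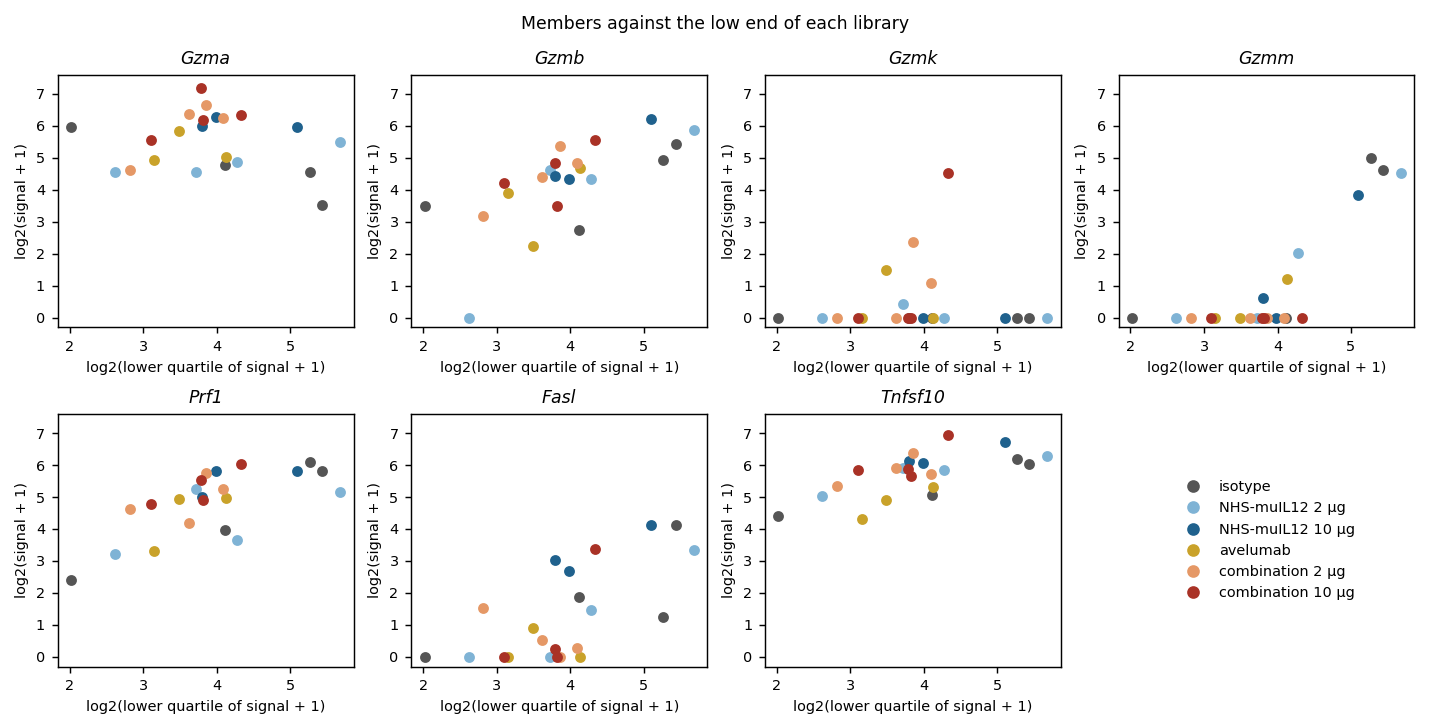
Each member's log2(signal + 1) against the log2 of the lower quartile of signal plus 1 of the same library, with points coloured by group (22 tumours). The 4 highest Gzmm values are those of the 4 libraries farthest to the right, whereas Gzma shows no such slope.

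Among other tested genes the closest to Gzma across the 22 libraries were Tnfrsf1a, a TNF receptor (r = 0.81), Sh2d1a, an adaptor of SLAM receptors in T and NK cells (0.81), and Serping1, a complement inhibitor (0.77). Over deviations from group means they were the endothelial genes Pecam1 (0.75) and Cdh5 (0.71), then Tnfrsf1a (0.67). Gzmb was closest to the interferon-induced genes Oas3 (0.88) and Mx2 (0.84) and to Tnfrsf9, the activation receptor 4-1BB (0.81), and over deviations to Oas3 (0.91), the T cell checkpoint gene Ctla4 (0.89) and Mx2 (0.88). Prf1 was closest to Cd3e (0.80), a chain of the T cell receptor complex, and over deviations to Fut7 (0.85). Tnfsf10 was closest to Klrc1 (0.92), which encodes the NK receptor NKG2A, and over deviations to Fut7 (0.94). Fasl was closest to Il2 on both measures (0.80 and 0.88). Gzmm was closest to Pla2g1b (0.96) and Elane (0.95), a neutrophil protease gene, both dim genes. Gzmk was closest to Ifit2 (0.77) and over deviations to Txnip (0.81), with 17 of its values at 0.

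Genes around the members were read by list, first against isotype. The shares of all tested genes called, given above, were 10.5% at 10 µg alone, 9.47% in combination 2 µg and 19.7% in combination 10 µg, and each list's count is to be read against them. All list calls against isotype were lost when the 4 high low-end libraries were left out, which left 2 isotype mice. In that fit 0 of the 750 genes passed in limma in any of these 3 comparisons (111, 107 and 163 at an unadjusted p under 0.05). The fit also held fewer mice, and the reason for the loss was not tested. With only the groups compared, 65, 16 and 0 genes passed. At 2 µg alone and with avelumab alone 0 genes of the 11 lists passed. Of 17 further granule genes 3 were measured, and of these Lamp1 and Lamp2, membrane proteins of lysosomes in all cells, rose in combination 10 µg (0.42 ± 0.11 and 0.63 ± 0.14), whereas Ctsw, a protease of cytotoxic lymphocytes, stood at -0.18 ± 0.52. Of 14 measured death receptor genes 1 rose in combination 10 µg, Casp8 (0.36 ± 0.10), the caspase that starts the cascade. The receptors themselves stood at 0.20 ± 0.20 for Fas and -0.26 ± 0.15 for Tnfrsf10b, the mouse TRAIL receptor, and neither passed. The median change over the 14 genes was 0.10, against 0.05 over all tested genes.

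Of 23 genes that induce or accompany the killer programme, 3 rose at 10 µg alone, 2 in combination 2 µg and 5 in combination 10 µg, shares near those of all genes. Irf1, an interferon-induced transcription factor, rose at 10 µg alone (1.16 ± 0.27) and in combination 10 µg (0.94 ± 0.25), and Il2ra, the interleukin-2 receptor alpha chain, rose in combination 2 µg (1.58 ± 0.47). In combination 10 µg the interleukin-12 receptor chain Il12rb2 rose as well, from a level listed at 0 in all 4 isotype mice, and it was also at 0 in all 3 avelumab mice. For any NHS-muIL12 9 of the 23 rose and 0 fell (median 0.50), where 22.7% of all tested genes were called, among them Il12rb1 (0.91 ± 0.23) and the cytokine receptor genes Il2rg (1.89 ± 0.51) and Il21r (1.15 ± 0.23). Ifng stood at -0.10 ± 0.93, and the transcription factors of the programme, Tbx21 and Eomes, at -0.32 ± 0.68 and -0.20 ± 0.45, and none of these passed.

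Of 19 measured NK genes 4 rose at 10 µg alone, 2 in combination 2 µg and 3 in combination 10 µg, and 0 fell. The count was above the share of all genes at 10 µg alone, near it in combination 2 µg and below it in combination 10 µg. In the same order, 13, 8 and 10 of the 19 NK genes had changes above 0. Their medians were 0.55, -0.27 and 0.13, against 0.10, -0.04 and 0.05 over all tested genes. Klrk1, which encodes the activating receptor NKG2D, changed most in each (3.48 ± 0.72, 3.24 ± 0.66 and 3.52 ± 0.66). The Ly49 genes Klra5 (2.72 ± 0.64) and Klra6 (2.80 ± 0.80) rose at 10 µg alone. Klra2, which passed in the 3 groups, is known in mice mainly from myeloid cells. Of 16 T cell genes 1 rose, the kinase gene Lck in combination 10 µg (0.76 ± 0.26), and 0 at 10 µg alone or in combination 2 µg. Their changes lay above 0 for 8 genes at 10 µg alone (median -0.09), 6 in combination 2 µg (-0.21) and 6 in combination 10 µg (-0.33). For any NHS-muIL12 6 of 19 NK genes (median 0.47) and 2 of 16 T cell genes (median 0.42) rose, against 22.7% of all tested genes called, so that the T cell count lay below that share.

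Summed signal of the NK genes ran from 255 to 769 in isotype, 244 to 397 with avelumab, 326 to 1029 at 2 µg alone, 678 to 1027 at 10 µg alone, 471 to 653 in combination 2 µg and 502 to 1316 in combination 10 µg. Klra1 and Klra3 were at 0 in all avelumab mice. Summed signal of the T cell genes ran from 126 to 695 in isotype, 134 to 279 with avelumab, 236 to 596 at 10 µg alone and 197 to 730.3 in combination 10 µg, and overlapped between these groups. The high low-end libraries held the 2 highest T cell sums in isotype (677 and 695) and the highest at 10 µg alone (596). The remaining isotype mice were at 126 and 217 and the remaining mice at 10 µg alone at 236 and 272. With 2 mice left on each side, the gap between them cannot be read as a difference. With all mice, the median change over the T cell genes at 10 µg alone against isotype was -0.09, and 0 passed. The highest NK sums in isotype (769), at 2 µg alone (1029) and at 10 µg alone (1027) were also from such libraries. The part of these cells in the Gzma and Tnfsf10 differences was not tested.

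Other cell types were read in the same way. Of 10 measured macrophage genes 1 rose at 10 µg alone, 1 in combination 2 µg and 6 in combination 10 µg, the last above the share of all genes and the others near it, and their summed signal ran from 2276 to 4709 in isotype and from 4941 to 9975 in combination 10 µg. Fcgr1, the high-affinity Fc receptor, changed by 1.69 ± 0.35 there. Of 5 measured mast cell genes 2 fell in each combination, Cma1 and Tpsab1 (-2.91 ± 0.96 and -2.03 ± 0.57 in combination 10 µg). The isotype sums of the mast cell genes were 283 and 193 in the high low-end replicates 1 and 2 and 70.6 and 110.2 in replicates 3 and 4, against 19.2 to 52.1 in combination 2 µg and 14.1 to 83.6 in combination 10 µg. Of 6 neutrophil genes Mpo fell in combination 2 µg (-2.86 ± 0.77). Of 3 measured plasmacytoid dendritic cell genes Bst2 and Irf7, both also induced by interferon, rose in combination 10 µg (0.82 ± 0.26 and 1.09 ± 0.29), and Bst2 at 10 µg alone. Among 7 B cell and 3 epithelial genes 0 passed against isotype.

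**Figure D4:**
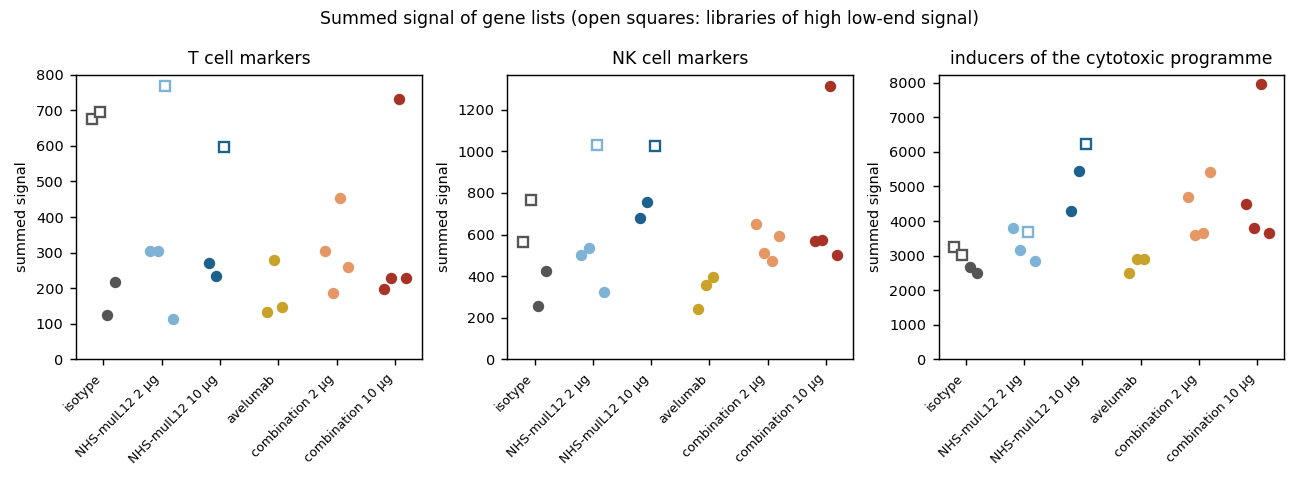
Summed signal per tumour of 16 T cell genes, 19 NK cell genes and 23 inducers of the killer programme, by group. Points are mice and open squares the 4 high low-end libraries. The sums of inducers at 10 µg alone (4304 to 6232) lie above those of isotype (2488 to 3242). Those of combination 2 µg (3603 to 5409) and combination 10 µg (3653 to 7959) do so too. In the same order, 22.1%, 17.1% and 19.1% of single tested genes were free of overlap with isotype, in either direction. Of the 23 inducers, 3, 2 and 5 were called in limma, in that order. T cell sums of these groups overlap with isotype when all mice are taken.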

How the data were processed

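NanoString signals of 770 genes were read in 22 tumours grouped by their titles. Total RNA was assayed, per the labels' protocols; the software, background correction and scaling were not given in the sources used here. Below a signal of 400, the deposited signal values of each library sat on evenly spaced levels (tolerance 0.05 of a level, 0.664 to 1.68 signal apart), which were read as counts above background times 1 factor per library. No count model was used. Values were analysed as log2(signal + 1), unfiltered, with limma 3.58.1 (lmFit and eBayes, R 4.3.3), 1 mean for each of 6 groups, 15 two-sided comparisons and Benjamini-Hochberg adjustment over 750 genes. Folds on this scale understate changes of dim genes. The same kind of limma fit was tried on simulated, normally distributed values without a floor, for any NHS-muIL12 against none only. Replicates are separate mice. Named were the 7 members, for each member up to 3 genes of highest r, and up to 3 genes per list past the threshold against isotype; list genes named beyond this were chosen after their values were seen. One list gene that the rule names is not reported here. The members and lists were chosen with earlier results of these data known. Of 770 symbols, 754 matched RefSeq's current symbols. Alternatives were a pseudocount of 16, a minimum mean signal of 20, 3 normalizations, other variance models, sample weights, only the groups compared, a replicate block, leaving out mice and, added later, the lower quartile as a covariate.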

Additional observations from a re-analysis of the deposited data

Results flagged for a closer look

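Among 25 sets of a member's values in a group of 4 mice, 3 had 1 mouse far from the rest. In each of the 3, the other mice were at or near 0. Where 3 of 4 values are 0, any value above 0 is flagged, so no chance rate applies to these flags. Combination 10 µg replicate 3 lay far above its group for Gzmk (21.8 against 0 in the other 3 mice) and for Fasl (9.29 against 0 to 0.184). The same mouse had the highest Tnfsf10 signal of the 22 tumours (123) and the highest summed NK gene signal of its group (1316). For Gzmk in NHS-muIL12 2 µg, replicate 1 was at 0.338 and the other 3 mice at 0.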

How the results depend on the processing

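Of 2181 refits of a member in a comparison, 1972 kept their direction and their side of the threshold, 169 moved through 0 without either value past the threshold, 32 gained a call, 8 lost one and 0 reversed a call. The number of members called in combination 10 µg against isotype (1, Gzma) was 0 after centring on library medians (log2 change 1.41, limma adjusted p = 0.0583), with only the groups compared (log2 change 1.60, limma adjusted p = 0.134) and in the absence of the 4 high low-end libraries, and 2 under quantile normalization, sample weights or the covariate. For any NHS-muIL12 it was 2 with sample weights in place of 1. Where it was 0, sample weights gave 2 against isotype at 10 µg alone, with avelumab and in combination 2 µg, 4 for avelumab over doses, and 1 for either combination against avelumab, for combination 2 µg against 2 µg alone and between doses alone. Quantile normalization gave 1 at 10 µg alone and for combination 10 µg against avelumab, where the minimum mean signal and leaving out the 4 libraries also gave 1. The covariate gave 1 against isotype at 10 µg alone and in combination 2 µg, and 1 for either combination against avelumab. Leaving out 1 mouse gave 0 to 1 at 10 µg alone and in combination 2 µg, and 0 to 2 in combination 10 µg against isotype and for any NHS-muIL12. The cause was not tested.

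Counts of all genes called, with the range when 1 mouse was left out and then over the other alternatives, were 79 at 10 µg alone (23 to 90, 0 to 255), 71 in combination 2 µg (16 to 140, 0 to 308), 148 in combination 10 µg (63 to 227, 0 to 269), 81 and 127 for combination 2 µg and 10 µg against avelumab (0 to 95 and 52 to 144, 0 to 217 and 0 to 160), 2 for combination 2 µg against 2 µg alone (0 to 1, 0 to 50) and 170 for any NHS-muIL12 (136 to 181, 135 to 310). Where the count was 0, sample weights gave 90 at 2 µg alone, 98 with avelumab, 63 between doses alone and 136 for avelumab over doses.

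With a replicate block the Gzma change in combination 10 µg was 1.60 (limma adjusted p = 0.0343) and the Tnfsf10 change for any NHS-muIL12 was 0.83 (limma adjusted p = 0.0443), and neither call changed. Same-numbered mice of different groups had a median r of 0.0065 (-0.83 to 0.68) over deviations from group means, and 4 of 22 libraries were closest to one of their own number, so no pairing by number was seen. Depth limits the dim members most, since Gzmk, Gzmm and Fasl had medians of 0, 0 and 0.735 counts above background.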
